A study of Mus musculus with 9 samples.

Results

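The TCF/LEF factors and beta-catenin are the nuclear end of the canonical Wnt pathway, and their 5 genes (Lef1, Tcf7, Tcf7l1, Tcf7l2 and Ctnnb1) were followed here by RNA-seq in E14 mouse embryonic stem cells. These 5 rows were taken from a table of 38293 genes. They were chosen by their levels in these same libraries, because Lef1 moved opposite to other Wnt target genes. Their values, and the thresholds that they pass below, are therefore a description and not a test. E14 is 1 line of strain 129/Ola, and every group comes from it. The mESC-2i group was grown in N2B27 medium with the MEK inhibitor PD0325901 (1 µM), the GSK3 inhibitor CHIR99021 (3 µM) and LIF (10 ng/mL). The titles of the mESC-2i samples also hold the letters LT, which are not interpreted here. The mESC-ser group was grown on gelatin in foetal bovine serum with LIF (10 ng/mL) and no inhibitor. EpiLC, which are epiblast-like cells, were derived from naive cells plated on fibronectin in N2B27 with activin A (20 ng/mL), bFGF (12 ng/mL) and 1% KSR. Each group held 3 libraries, labelled as biological replicates.

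When no Wnt ligand is present, a complex of Axin, APC, casein kinase 1 and GSK3 phosphorylates beta-catenin and marks it for degradation. Wnt binding to Frizzled and LRP5/6 receptors, or a GSK3 inhibitor such as CHIR99021, stops this, and beta-catenin enters the nucleus and binds TCF/LEF factors on DNA. Without beta-catenin these factors recruit Groucho/TLE corepressors. In embryonic stem cells Tcf7l1 (also called TCF3) is known mainly as a repressor of pluripotency genes such as Esrrb, Nanog and Tfcp2l1, and beta-catenin relieves that repression. Tcf7 (TCF1) and Lef1 are known mainly as partners of beta-catenin in activation, and Lef1 and Axin2 are themselves Wnt targets in many tissues. Because GSK3 acts on the protein, beta-catenin activity is not read from Ctnnb1 mRNA, and no protein was measured in these libraries.

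The 4 factors bind DNA through a shared HMG box, so the coding sequence there shows whether reads of one gene could be counted for another. The 90-base stretch within 1 exon of Lef1 that was most alike in the other 3 genes was read from the GENCODE M21 transcripts (GRCm38) and follows, with bases that differ from Lef1 in capitals.
Lef1: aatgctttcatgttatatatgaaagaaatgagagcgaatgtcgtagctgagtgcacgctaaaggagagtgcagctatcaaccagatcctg
Tcf7: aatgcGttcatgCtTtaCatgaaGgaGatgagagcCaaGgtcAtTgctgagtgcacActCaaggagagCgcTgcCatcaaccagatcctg
Tcf7l1: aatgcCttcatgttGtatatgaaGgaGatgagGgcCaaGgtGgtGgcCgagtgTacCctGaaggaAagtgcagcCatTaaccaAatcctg
Tcf7l2: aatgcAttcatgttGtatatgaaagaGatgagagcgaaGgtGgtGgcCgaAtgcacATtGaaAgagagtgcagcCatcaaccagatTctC
The Lef1 stretch lies at chr3:131194689-131194778 on the plus strand, in exon 8 of its longest coding transcript. The stretch of Tcf7 is at chr11:52256958-52257047 (minus strand, exon 7), that of Tcf7l1 at chr6:72631224-72631313 (minus strand, exon 10) and that of Tcf7l2 at chr19:55918946-55919035 (plus strand, exon 9). Identity to Lef1 was 83.3% for Tcf7, 81.1% for Tcf7l1 and 83.3% for Tcf7l2, and the differences were spread along the stretch. No run of 50 bases, the read length, nor one of 25 bases was shared between any of the 10 pairs of the 5 genes in 52 annotated transcripts, so an exactly matching read had 1 source among these 5 genes.

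In Ctnnb1 the part that ties it to GSK3 is the run of exon 3 that codes for the phosphorylated residues. It is shown from chr9:120950596-120950649 (GRCm38, plus strand), codons 30 to 47, with the codons of serine 33, serine 37, threonine 41 and serine 45 in capitals.
Ctnnb1: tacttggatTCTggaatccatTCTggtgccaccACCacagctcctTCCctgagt
Casein kinase 1 phosphorylates serine 45, and GSK3 then phosphorylates the other three, so these are the codons whose product CHIR99021 acts on indirectly in mESC-2i.

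Whole genes were counted, so isoforms were not separated. Lef1 (ENSMUSG00000027985) spans chr3:131110471-131224356 and Tcf7 (ENSMUSG00000000782) spans chr11:52252371-52283014. Tcf7l1 (ENSMUSG00000055799) spans chr6:72626378-72789254, Tcf7l2 (ENSMUSG00000024985) chr19:55741820-55933654 and Ctnnb1 (ENSMUSG00000006932) chr9:120929216-120960507. The libraries do not mark strand, so reads in exons shared with a gene on the other strand cannot be assigned. Lef1 shares 1208 bases (13.7% of its exonic length) with the antisense gene Gm43352, which is not among the genes counted. Any reads of Gm43352 in those bases could not be told from reads of Lef1. Ctnnb1 shares 759 bases with Ulk4, which held 12 to 55 counts per library, at most 0.53% of the counts of Ctnnb1. Tcf7l1 shares 179 bases with Gm15401, which held 0 to 3 counts. The same limit holds for other genes named below. Genes on the other strand share 29.4% of the exonic length of Notum, 28.3% of Gsk3a, 25.8% of Ctnnbip1 and 17.8% of Fzd5.

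Totals ranged from 7187576 to 16829549 counts per library. The labelled states were checked by marker sums, which were 2380 to 2560 CPM (counts scaled to library size, with TMM factors over the 9 libraries) for 6 naive markers in mESC-2i, 1440 to 1530 in mESC-ser and 41.9 to 46.9 in EpiLC. The 5 formative markers ran the other way, at 82.6 to 93.6, 780 to 910 and 2150 to 2240 CPM. Not every naive marker followed the naive sum. From mESC-2i to mESC-ser, Esrrb, Klf4, Tbx3 and Tfcp2l1 fell. Nr0b1 rose from 52.2 ± 8.65 to 107 ± 3.48 CPM, and Zfp42 from 293 ± 8.47 to 353 ± 49.2 with overlap. The 4 pluripotency markers summed to 1860 to 2380 CPM in mESC-2i, 2100 to 2120 in mESC-ser and 1540 to 1630 in EpiLC. In EpiLC Sox2 was at 61.8 ± 6.36 CPM, beside 468 ± 9.60 in mESC-2i and 509 ± 50.0 in mESC-ser. Nanog was also lowest in EpiLC, whereas Pou5f1 (1010 ± 21.6 CPM) and Lin28a (457 ± 15.5 CPM) were not. Of other cell types, 5 primitive streak and mesoderm markers summed to 94.4 to 116 CPM in mESC-2i, 13.0 to 16.4 in mESC-ser and 15.0 to 17.2 in EpiLC. Of the mESC-2i sum, T alone, itself a Wnt target, gave 77.4 to 98.3 CPM. The 5 fibroblast markers summed to 43.6 to 50.5, 58.7 to 77.7 and 31.2 to 38.5 CPM, the 5 primitive endoderm markers to 17.9 to 22.1, 31.4 to 32.3 and 6.66 to 8.57, the 4 neural markers to 28.2 to 30.6, 31.0 to 33.5 and 1.30 to 2.39, and the 5 trophectoderm markers to 21.7 to 24.9, 16.4 to 17.3 and 6.28 to 7.78. Of the fibroblast markers, Thy1 followed the order of Lef1, at 3.05 ± 0.469, 4.41 ± 0.550 and 29.5 ± 2.05 CPM (SD, n = 3), and gave most of the EpiLC sum, where Col1a1 was at 1.47 ± 0.931 CPM and Col3a1 at 0 to 5 counts per library. Cdx2, also a Wnt target, gave 14.6 to 17.2 CPM of the trophectoderm sum in mESC-2i and 2.17 to 2.87 in mESC-ser. Gata3 and Hand1 went the other way, from 1.31 and 0.0669 CPM in mESC-2i to 5.28 and 4.53 in mESC-ser. The neural sum was mostly Sox1 in mESC-2i (24.1 ± 1.89 CPM) and mostly Pax6 in mESC-ser (25.2 ± 1.02 CPM). The part of these cell types in the members' values was not tested. In bulk libraries, fewer cells of a type and less RNA per cell cannot be told apart.

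Lef1 was lowest in mESC-2i, the state in which both GSK3 and MEK were inhibited. The states differed in the rest of the medium too, and the part of each inhibitor or medium in the level of Lef1 was not tested. The level of Lef1 was 19.0, 20.2 and 24.9 CPM in replicates 1, 2 and 3 of mESC-2i. In mESC-ser it was 72.0, 66.6 and 78.7 CPM, and in EpiLC 106, 98.3 and 125 CPM. No group overlapped another, so every serum library stood above every 2i library and every EpiLC library above every serum library. The means were 21.4 ± 3.09 (SD, n = 3), 72.4 ± 6.07 and 110 ± 13.6 CPM. On the log2 scale Lef1 was higher by 1.70 (SE 0.129) in mESC-ser than in mESC-2i, by 2.34 (SE 0.131) in EpiLC than in mESC-2i and by 0.68 (SE 0.0967) in EpiLC than in mESC-ser.

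Tcf7 followed another order, with its lowest level in serum. It held 119, 115 and 110 CPM in the mESC-2i libraries, 68.0, 62.5 and 71.8 in mESC-ser. The EpiLC libraries held 103, 101 and 98.8 CPM. The 3 groups did not overlap, although EpiLC and mESC-2i lay close, at 101 ± 2.10 and 115 ± 4.26 CPM against 67.4 ± 4.64 in mESC-ser (SD, n = 3). The log2 difference was -0.82 (SE 0.0988) for mESC-ser against mESC-2i, -0.21 (SE 0.0842) for EpiLC against mESC-2i and 0.66 (SE 0.0817) for EpiLC against mESC-ser. Lef1 and Tcf7, the 2 factors known mainly for activation, thus stood on opposite sides of mESC-2i in serum and on the same side of mESC-ser in EpiLC.

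Tcf7l1, the repressor, had the smallest differences between group means of the 5 with TMM scaling. It held 121, 114 and 143 CPM in mESC-2i, 138, 129 and 154 in mESC-ser. The EpiLC libraries held 109, 106 and 123 CPM. The mESC-2i libraries overlapped both other groups, and the EpiLC libraries lay below those of mESC-ser. Group means were 126 ± 15.3, 140 ± 13.0 and 113 ± 8.91 CPM (SD, n = 3). The log2 differences were 0.10 (SE 0.118) for mESC-ser against mESC-2i, -0.18 (SE 0.110) for EpiLC against mESC-2i and -0.24 (SE 0.0889) for EpiLC against mESC-ser.

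Tcf7l2 (TCF4), a main partner of beta-catenin in the intestine, was the scarcest factor, with 39 to 252 counts per library. It held 10.6, 9.09 and 14.4 CPM in mESC-2i, 12.2, 13.2 and 14.5 in mESC-ser. The EpiLC libraries held 6.04, 5.86 and 4.90 CPM. The mESC-2i and mESC-ser libraries overlapped, and all EpiLC libraries lay below them. The means were 11.4 ± 2.75, 13.3 ± 1.11 and 5.60 ± 0.612 CPM (SD, n = 3). The log2 difference was 0.17 (SE 0.180) for mESC-ser against mESC-2i, -1.04 (SE 0.208) for EpiLC against mESC-2i and -1.17 (SE 0.148) for EpiLC against mESC-ser.

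Ctnnb1 was abundant in both stem cell media and lower in EpiLC. It held 820, 842 and 771 CPM in mESC-2i, 772, 751 and 746 in mESC-ser. The EpiLC libraries held 432, 389 and 430 CPM. The mESC-2i and mESC-ser groups overlapped by 1 library each, and no EpiLC library came near them. The means were 811 ± 36.4, 756 ± 13.9 and 417 ± 24.5 CPM (SD, n = 3). The log2 difference was -0.16 (SE 0.0962) for mESC-ser against mESC-2i, -0.98 (SE 0.0945) for EpiLC against mESC-2i and -0.78 (SE 0.0773) for EpiLC against mESC-ser.

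**Figure D1:**
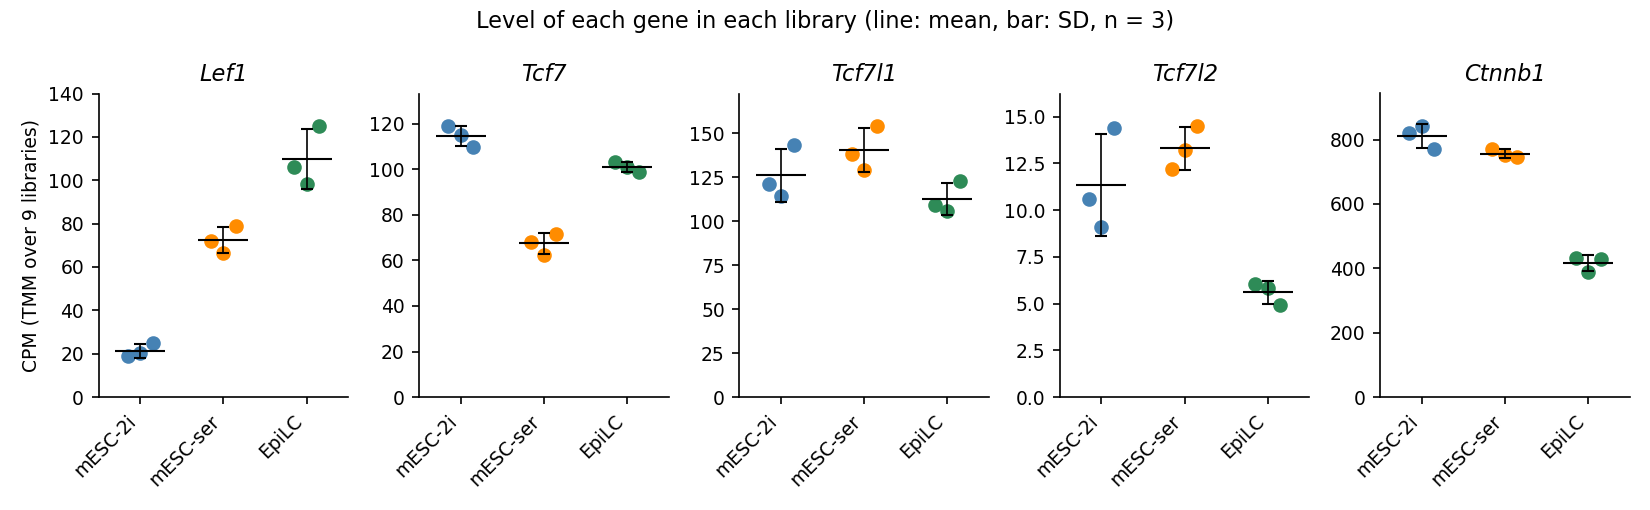
Level of the 5 genes in each library, in CPM scaled by TMM over 9 libraries (vertical axis, from 0 and with its own range in each panel), by culture state (horizontal axis). Points are libraries, lines the means and bars the SD of 3 libraries. Lef1 climbs from 19.0 to 24.9 CPM in mESC-2i to 98.3 to 125 CPM in EpiLC, whereas Ctnnb1 and Tcf7l2 are lowest in EpiLC and Tcf7 is lowest in mESC-ser.

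The 5 genes were set beside all genes tested, where a gene was called at an adjusted p under 0.05 (edgeR quasi-likelihood test) and an absolute log2 fold change over 0.5. Of 15728 genes tested between mESC-ser and mESC-2i, 56.2% were called, 25.9% higher and 30.3% lower in mESC-ser, and the groups of 70.7% did not overlap. Among the members 2 of 5 were called, Lef1 higher and Tcf7 lower, and the groups of 2 of 5 did not overlap. Between EpiLC and mESC-2i 69.8% of 15378 genes were called, 32.0% higher and 37.8% lower, and 81.8% had groups apart. There 3 of 5 members were called, Lef1 higher and both Tcf7l2 and Ctnnb1 lower, with 4 of 5 apart. Between EpiLC and mESC-ser 73.3% of 15345 genes were called, 35.5% higher and 37.8% lower, and 85.7% had groups apart. There 4 of 5 members were called, Lef1 and Tcf7 higher and Tcf7l2 and Ctnnb1 lower, with 5 of 5 apart. These counts of members repeat what they were selected on, and comparisons between states so far apart called most genes.

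Fold changes in these libraries depended on gene length and GC content, so each difference was also fitted with offsets for both. Lef1 stayed higher, by 1.44 in mESC-ser and by 2.87 in EpiLC than in mESC-2i on the log2 scale, and by 1.49 in EpiLC than in mESC-ser. Ctnnb1 stayed lower in EpiLC, at -0.65 against mESC-2i and -0.52 against mESC-ser. The other 3 factors depended on the offsets. Tcf7 came to -0.47 for serum against 2i and to 0.20 for EpiLC against serum, both short of the call. Tcf7l2 came to -0.50 and -0.34 in EpiLC against mESC-2i and mESC-ser, and the second was no longer called. Tcf7l1 came to -0.51 in EpiLC against mESC-ser, which was then called.

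Scaling to total counts moved the median of all genes from -0.11 to -0.45 on the log2 scale in EpiLC against mESC-2i, and from -0.07 to -0.41 in EpiLC against mESC-ser. Genes higher in EpiLC then made up 33.7% of calls in place of 45.9% against mESC-2i, and 37.4% in place of 48.4% against mESC-ser. Under that scaling Lef1 was higher by 0.34 and Tcf7 by 0.32 in EpiLC than in mESC-ser, both short of the call, and Lef1 was still higher by 2.00 in EpiLC than in mESC-2i. Tcf7 and Tcf7l1 came to -0.54 and -0.52 in EpiLC against mESC-2i and were called lower there.

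**Figure D2:**
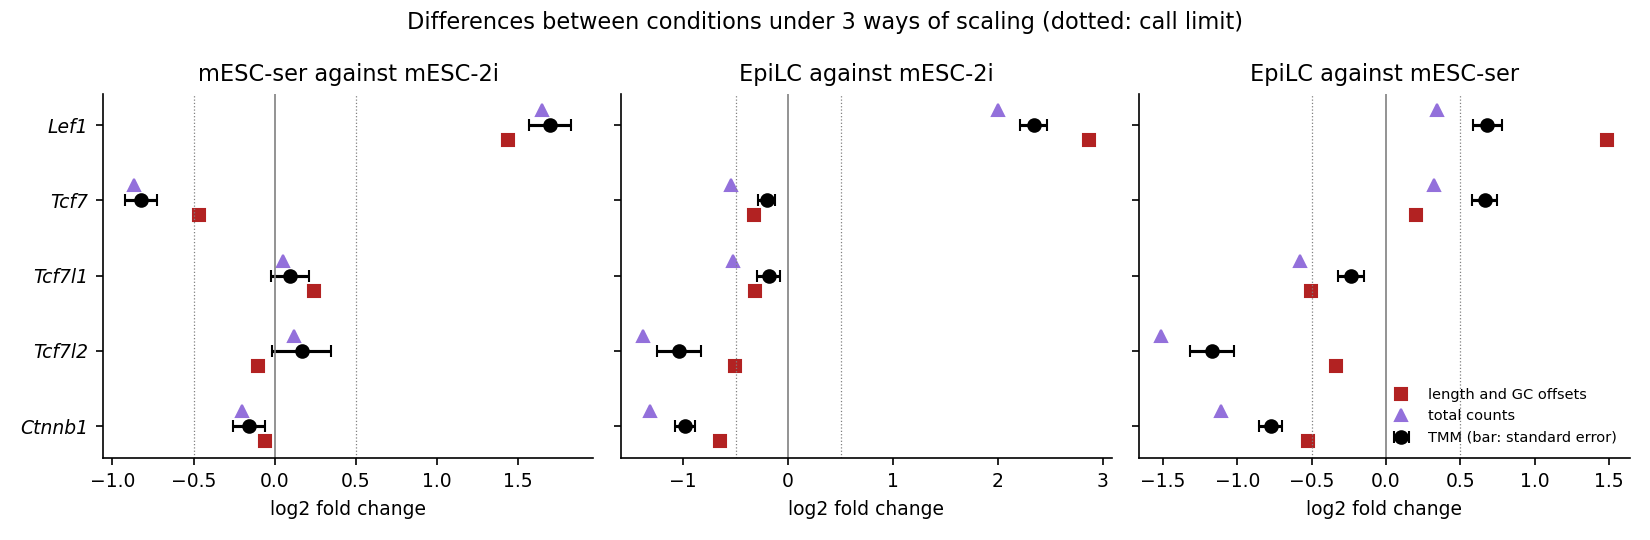
Log2 fold change of each gene (horizontal axis) in the 3 comparisons, with TMM scaling (black, bars are standard errors), with length and GC offsets (red squares) and with total-count scaling (purple triangles). Dotted lines mark 0.5 in each direction. The 3 values of Lef1 lie to the right of 0 in each panel and those of Ctnnb1 to the left, whereas Tcf7 in EpiLC against mESC-ser runs from 0.20 to 0.66.

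Levels of different genes were compared per length, as RPKM (CPM divided by the length in kilobases of all annotated exons of the gene). In mESC-2i Tcf7 and Tcf7l1 made up nearly all TCF/LEF transcripts, at 43.7 ± 1.62 and 32.1 ± 3.89 RPKM, beside 2.43 ± 0.352 for Lef1 and 1.29 ± 0.314 for Tcf7l2 (SD, n = 3). As shares of the summed RPKM these were 55.0%, 40.3%, 3.05% and 1.62%. In mESC-ser Tcf7l1 led with 50.2% ± 0.599, followed by Tcf7 with 36.1% ± 0.640 and Lef1 with 11.6% ± 0.0281. In EpiLC Tcf7 led again with 47.9% ± 2.58, followed by Tcf7l1 with 35.7% ± 1.44 and Lef1 with 15.5% ± 1.29, while Tcf7l2 held 0.798% ± 0.113.

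The summed level of the 4 factors changed less than its make-up. The sums were 79.6 ± 3.47 RPKM for mESC-2i, 71.2 ± 5.81 for mESC-ser and 80.2 ± 3.22 for EpiLC (SD, n = 3). Ctnnb1 stood at 156 ± 7.01 RPKM in mESC-2i, above each of the 4 factors there.

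These shares rest on the length used, since Lef1 and Tcf7l2 have many annotated exons outside their main transcripts. With the longest transcript of each gene, Lef1 took 6.02%, 20.4% and 27.4% in the 3 states in the same order, and with the median coding transcript 4.80%, 16.2% and 22.9%. The order of the 3 states for Lef1 was the same with each length. The order of Tcf7 and Tcf7l1 was not, because with the median coding transcript Tcf7l1 led in mESC-2i (50.7% beside 41.6%) and in EpiLC (42.0% beside 33.8%). The summed levels depended on the length too. With the longest transcript they were 96.8, 96.9 and 109 RPKM in mESC-2i, mESC-ser and EpiLC. With the median coding transcript they were 131, 132 and 142 RPKM, so mESC-ser was lowest only with all annotated exons.

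**Figure D3:**
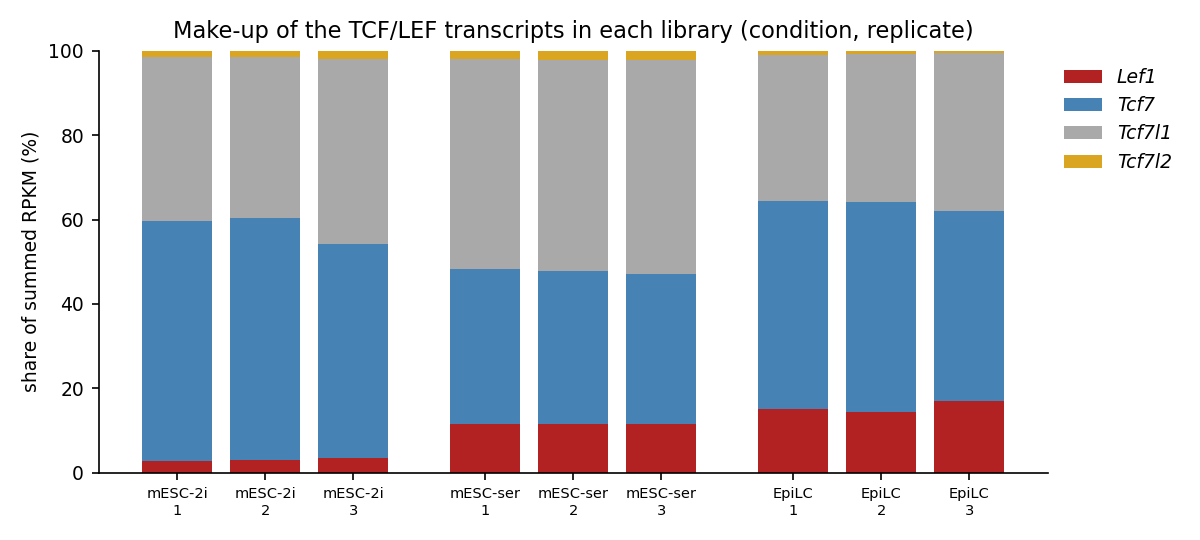
Share of each factor in the summed RPKM of Lef1, Tcf7, Tcf7l1 and Tcf7l2 (vertical axis, percent) in each of the 9 libraries (horizontal axis, grouped by state). The Lef1 share averages 3.05% under 2i, 11.6% in serum and 15.5% in EpiLC, and Tcf7l1 holds its largest share in mESC-ser.

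Other Wnt target genes ran against Lef1, and the contrast is the one by which the 5 genes were chosen. The calls of these targets repeat that contrast and give it no support. Of a list of 12 targets, 11 were tested between mESC-ser and mESC-2i. Of these 10 were called lower in mESC-ser and 0 higher, with a median log2 fold change of -2.75 beside -0.04 for all genes tested. In EpiLC against mESC-2i all 11 of those tested were called lower, with a median of -5.54 beside -0.11. The median was -4.73 with the 4 genes at the floor in EpiLC set to their bounds. With length and GC offsets Znrf3 came to -0.45 there, in place of -0.94, and was not called. Lgr5 was too low to be tested in any comparison. Of all genes tested, 30.3% were called lower in mESC-ser and 37.8% in EpiLC against mESC-2i.

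Axin2, the feedback scaffold of the destruction complex and the most general Wnt target, went from 170 ± 22.0 CPM in mESC-2i to 32.9 ± 3.77 in mESC-ser and 7.27 ± 1.16 in EpiLC (SD, n = 3). Sp5, a transcription factor induced by Wnt, went from 145 ± 8.49 to 10.6 ± 1.42 CPM in mESC-ser, and at 3 counts or fewer per library in EpiLC it was at least 394-fold lower there than in mESC-2i. T (Brachyury), a mesoderm regulator, went from 85.5 ± 11.2 to 4.38 ± 0.622 and 1.35 ± 0.274 CPM. These 3 targets were lowest in EpiLC, where Lef1 was highest. Notum, a secreted Wnt inhibitor, went from 105 ± 12.8 to 42.7 ± 4.33 and 1.71 ± 0.0723 CPM. Znrf3, a ligase that removes Frizzled receptors, was not called in mESC-ser (27.0 ± 5.24 CPM in mESC-2i and 33.5 ± 2.05 in mESC-ser).

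Between EpiLC and mESC-ser, neither of which had a GSK3 inhibitor, the targets did not move as one. Of 9 tested, 7 were called lower and 2 higher, with a median of -2.11 beside -0.07 for all genes tested. Among all genes 37.8% were called lower and 35.5% higher. The 2 higher in EpiLC were Nkd1, an inhibitor of Dishevelled, at 6.27 ± 0.433 beside 2.25 ± 0.368 CPM, and Tnfrsf19, a surface receptor, at 13.0 ± 0.871 beside 6.66 ± 0.799 CPM (SD, n = 3).

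**Figure D4:**
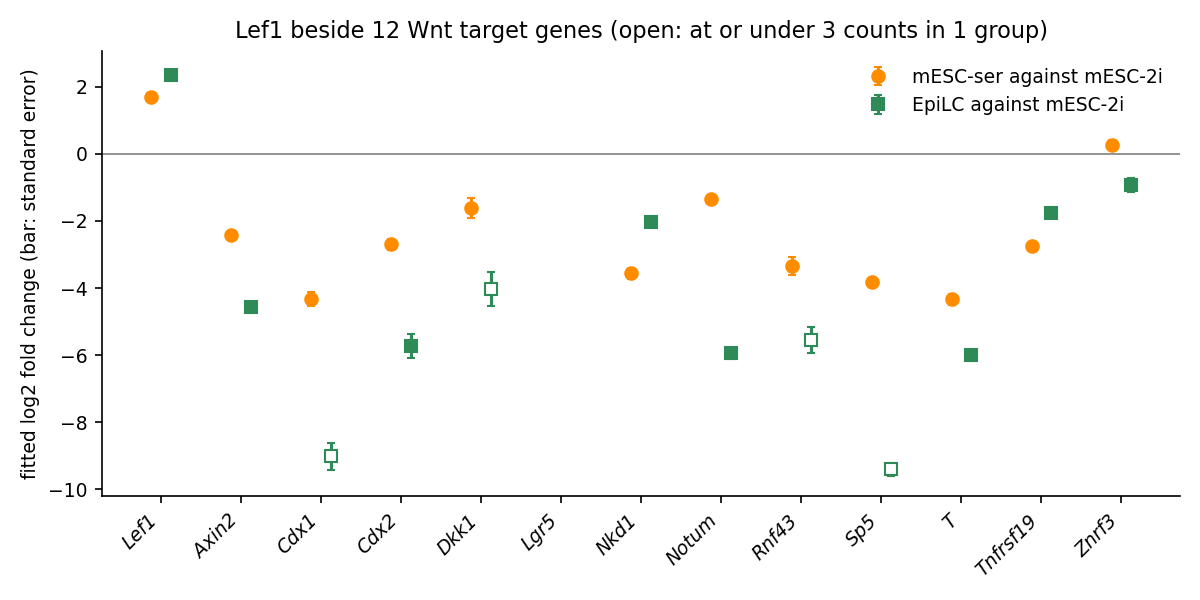
Fitted log2 fold change (vertical axis, bars are standard errors) of Lef1 and of 12 Wnt target genes (horizontal axis) in mESC-ser (orange circles) and in EpiLC (green squares) against mESC-2i. Open squares mark genes at 3 counts or fewer per library in EpiLC, whose fitted values are not bounds, and Lgr5 has no point because it was not tested. Lef1 lies above 0 in both comparisons, at 1.70 and 2.34, and among the targets Znrf3 in mESC-ser is the one point above 0.

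The 4 genes listed as repressed by Tcf7l1 in stem cells, Esrrb, Nanog, Tfcp2l1 and Klf2, were all called lower in EpiLC than in both other states, and in mESC-ser than in mESC-2i. Of all genes tested, 37.8% were called lower in EpiLC against mESC-2i, 37.8% in EpiLC against mESC-ser and 30.3% in mESC-ser against mESC-2i. Esrrb and Tfcp2l1 were also among the naive markers used to check the states, so their order repeats that check. Nanog, a core pluripotency factor, went from 650 ± 58.3 CPM in mESC-2i to 287 ± 26.3 in mESC-ser and 61.3 ± 3.91 in EpiLC (SD, n = 3). Esrrb, a nuclear receptor of naive cells, went from 675 ± 3.25 to 454 ± 49.5 and 14.5 ± 1.86 CPM. Across the same 3 states the mRNA of Tcf7l1 itself stayed between 106 and 154 CPM in all 9 libraries. The part of Tcf7l1 in the levels of these 4 genes was not tested.

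Promoter windows of the 5 genes were searched for the TCF/LEF consensus, taken as CTTTGAT or CTTTGAA on either strand, in RefSeq windows of GRCm38.p6 that run from 250 bases before a start to 50 after it. Of 32851 windows, 3.73% held CTTTGAT, 5.14% CTTTGAA and 8.65% at least one of them. The 5 members had 11 windows, 4 of them of Lef1, and none held either word. Of the 12 Wnt targets 8 had a window, and 4 of their 10 windows held one (Sp5, T, Dkk1 and Tnfrsf19). These are matches of letters in short windows only, and binding was not measured in the data used here.

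The genes upstream and beside the 5 members were taken from 6 lists of 59 genes, all of which passed the filter in each comparison. Between mESC-ser and mESC-2i, 23 of the 59 were called higher in mESC-ser and 8 lower (52.5% called, beside 56.2% of all genes), with a median of 0.32 beside -0.04. In EpiLC against mESC-2i, 5 were called higher and 26 lower (52.5%, beside 69.8%), with a median of -0.36 beside -0.11. In EpiLC against mESC-ser, 9 were called higher and 36 lower (76.3%, beside 73.3%), with a median of -0.81 beside -0.07. With length and GC offsets the calls were 20 higher and 11 lower, 10 and 18, and 10 and 25 in the 3 comparisons. Of the genes called, 22 of 31, 18 of 31 and 22 of 45 kept their call and direction in all 16 alternatives of scaling, filter, model, offsets, block and left-out library. A gene that an alternative filter left untested was counted as not kept.

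Receptor genes moved in both directions. Fzd7, a Frizzled receptor of pluripotent cells, rose from 24.2 ± 1.72 CPM in mESC-2i to 109 ± 10.0 in mESC-ser (log2 fold change 2.11, SE 0.117, adjusted p = 2.03e-07) and was at 80.3 ± 6.22 in EpiLC. Fzd10 fell from 125 ± 9.69 CPM in mESC-2i to 17 ± 2.25 in mESC-ser (-2.92, SE 0.124, adjusted p = 4.28e-08) and to 8.10 ± 0.656 in EpiLC (-3.96, SE 0.115, adjusted p = 1.41e-09). Fzd2 rose in EpiLC, to 86.5 ± 1.62 CPM from 13.2 ± 1.64 in mESC-2i and 18.7 ± 3.41 in mESC-ser, and Fzd5 fell there, to 15.4 ± 1.77 from 83.6 ± 2.52 and 141 ± 19.7. These 4 Frizzled genes kept their calls with length and GC offsets. In all, of 15 receptor and Dishevelled genes 5 were called higher and 3 lower in serum than in 2i, 2 and 6 in EpiLC than in 2i, and 4 and 6 in EpiLC than in serum. The shares called were 53.3%, 53.3% and 66.7%, beside 56.2%, 69.8% and 73.3% of all genes tested. The offsets gave 6 and 3, 3 and 4, and 4 and 6.

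The genes of beta-catenin turnover that were called in EpiLC were mostly lower there with TMM scaling. Of 12, 4 were called higher and 0 lower in serum than in 2i, 0 and 5 in EpiLC than in 2i, and 1 and 8 in EpiLC than in serum. As shares of the list, 33.3%, 41.7% and 75% were called, beside 56.2%, 69.8% and 73.3% of all genes tested. With length and GC offsets the counts were 2 and 1, 2 and 4, and 2 and 4. Tnks, the tankyrase that marks Axin for degradation, was at 21.4 ± 3.76, 105 ± 12.6 and 1.98 ± 0.669 CPM in mESC-2i, mESC-ser and EpiLC. Its log2 fold change in EpiLC against mESC-ser was -5.66 (SE 0.167, adjusted p = 4.99e-14), and -4.28 with length and GC offsets. Apc, a scaffold of the destruction complex, was at 90.9 ± 25.7, 250 ± 19.2 and 28.7 ± 2.49 CPM in mESC-2i, mESC-ser and EpiLC, and its log2 fold change in EpiLC against mESC-ser of -3.04 (SE 0.0962, adjusted p = 8.82e-14) was -1.57 with the offsets. The highest member in EpiLC relative to mESC-ser was Btrc, which codes for the ubiquitin ligase subunit that recognises phosphorylated beta-catenin (0.60, SE 0.0910, adjusted p = 1.13e-05), which moved to 2.03 with length and GC offsets, and its call was lost with total-count scaling (0.26).

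GSK3, the kinase that CHIR99021 inhibits, has 2 genes. Gsk3a was at 105 ± 2.69, 120 ± 8.43 and 117 ± 9.66 CPM in mESC-2i, mESC-ser and EpiLC and was called in no comparison. Gsk3b was at 76.0 ± 12.3, 96.2 ± 7.73 and 41.4 ± 2.48 CPM and was called lower in EpiLC against both, but not with length and GC offsets (-0.36 and -0.05).

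Of 10 coactivators of the beta-catenin complex, 6 were called higher and 2 lower in serum than in 2i, 0 and 6 in EpiLC than in 2i, and 0 and 8 in EpiLC than in serum. Calls covered 80%, 60% and 80% of the list, beside 56.2%, 69.8% and 73.3% of all genes tested. With the offsets the counts were 4 and 2, 2 and 5, and 1 and 5, and Cdc73, a subunit of the PAF1 complex, turned from -1.25 to 0.81 in EpiLC against mESC-ser. Ep300, an acetyltransferase that binds beta-catenin, rose from 87.9 ± 25.6 CPM in mESC-2i to 339 ± 28.7 in mESC-ser (1.89, SE 0.184, adjusted p = 9.42e-06). Its level in EpiLC was 48.2 ± 8.58 CPM, and its call there against mESC-2i was lost with the offsets (-0.16). Crebbp, its paralogue, was at 32.6 ± 11.6, 110 ± 8.68 and 3.89 ± 1.51 CPM in mESC-2i, mESC-ser and EpiLC. Its log2 fold change in EpiLC was -3.08 (SE 0.309) against mESC-2i. Against mESC-ser it was -4.73 (SE 0.157, adjusted p = 1.28e-13), and -3.66 with the offsets. Pygo1, a nuclear adaptor that joins BCL9 to chromatin, fell from 5.21 ± 0.806 CPM in mESC-2i to 1.74 ± 0.388 in mESC-ser and 0.349 ± 0.514 in EpiLC. Its paralogue Pygo2, at 74.3 ± 3.00, 63.2 ± 3.55 and 60.9 ± 3.26 CPM, was called in no comparison.

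Of 10 genes listed as corepressors or their relatives, 4 were called higher and 2 lower in serum than in 2i. In EpiLC the counts were 0 and 3 against 2i, and 1 and 6 against serum. Called shares were 60%, 30% and 70%, beside 56.2%, 69.8% and 73.3% of all genes tested. The offsets gave 3 and 2, 0 and 2, and 2 and 4. Tle4, a Groucho corepressor, rose from 57.8 ± 7.50 CPM in mESC-2i to 245 ± 14.5 in mESC-ser (2.03, SE 0.123, adjusted p = 3.75e-07) and was at 63.1 ± 4.07 in EpiLC. Its paralogue Tle3 was highest in mESC-2i, at 186 ± 3.70 CPM, and fell to 57.1 ± 2.34 in EpiLC (-1.72, SE 0.0863, adjusted p = 3.97e-08). Aes, the short Groucho relative, was the lowest relative to mESC-2i in mESC-ser (-0.54, SE 0.127, adjusted p = 0.00344), a call lost with the offsets (-0.35) and in 5 other alternatives, among them leaving out mESC-2i replicate 2, mESC-ser replicate 1 or mESC-ser replicate 2. Ctbp2, another TCF corepressor, was also called higher in mESC-ser than in both other states, at 108 ± 6.62, 355 ± 5.26 and 108 ± 5.88 CPM. Ctbp1 was the one corepressor called higher in EpiLC than in mESC-ser (0.81, SE 0.0801, adjusted p = 6.61e-08), a call lost with total-count scaling (0.47).

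Among 5 genes that act on the TCF and beta-catenin pair itself, 1 was called higher and 0 lower in serum than in 2i, 2 and 1 in EpiLC than in 2i, and 2 and 3 in EpiLC than in serum. That made 20%, 60% and 100% of the list, beside 56.2%, 69.8% and 73.3% of all genes tested. The offsets gave 2 and 1, 2 and 1, and 0 and 1. In EpiLC against mESC-ser the lower calls of Nlk and Tnik were among those lost, at -0.25 and 0.18 with the offsets. The 2 that were higher in EpiLC both code for proteins that keep beta-catenin from TCF/LEF factors. Cby1 (Chibby) rose from 16.0 ± 2.41 CPM in mESC-2i to 46.6 ± 4.13 in EpiLC (1.53, SE 0.136, adjusted p = 2.2e-06), and Ctnnbip1 (ICAT) from 21.6 ± 2.99 to 40.9 ± 1.74 CPM (0.90, SE 0.120, adjusted p = 4.5e-05). Both calls against mESC-2i held with length and GC offsets (0.97 and 0.74), and both calls against mESC-ser were lost (0.40 and 0.40). Hipk2, a kinase that phosphorylates Tcf7l1 and Lef1, rose from 12.2 ± 1.77 CPM in mESC-2i to 37.5 ± 3.06 in mESC-ser (1.57, SE 0.142, adjusted p = 5.48e-06) and was at 10.2 ± 1.28 in EpiLC. Tnik, a kinase that binds Tcf7l2, fell from 4.77 ± 1.40 CPM in mESC-2i to 1.57 ± 0.204 in EpiLC (-1.62, SE 0.284, adjusted p = 0.000339).

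Beta-catenin also links cadherins to the cytoskeleton, and of 7 junction partners 3 were called higher and 1 lower in serum than in 2i, 1 and 5 in EpiLC than in 2i, and 1 and 5 in EpiLC than in serum. In percent, 57.1%, 85.7% and 85.7% were called, beside 56.2%, 69.8% and 73.3% of all genes tested. The offsets gave 3 and 2, 1 and 2, and 1 and 5. Cdh1 (E-cadherin), at 635 ± 24.0, 611 ± 16.0 and 506 ± 19.5 CPM in mESC-2i, mESC-ser and EpiLC, was called in no comparison. Jup (plakoglobin), the closest relative of beta-catenin, was at 241 ± 7.73, 254 ± 24.8 and 79.0 ± 3.91 CPM, and it fell in EpiLC against mESC-2i by 1.63 on the log2 scale (SE 0.0870, adjusted p = 6.18e-08). Ctnna1, which codes for the alpha-catenin that binds beta-catenin at junctions, was at 418 ± 6.49, 732 ± 56.4 and 247 ± 7.29 CPM. Cdh3 (P-cadherin) rose from 8.45 ± 0.845 CPM in mESC-2i to 38.8 ± 4.48 in mESC-ser (2.14, SE 0.142, adjusted p = 6.55e-07) and was at 15.9 ± 0.968 in EpiLC. Cdh2 (N-cadherin) fell from 23.4 ± 2.40 CPM in mESC-2i to 4.32 ± 1.30 in EpiLC (-2.48, SE 0.203, adjusted p = 1.22e-06). Ctnna2, the neural alpha-catenin, was at 3 counts or fewer per library in mESC-ser, at least 12.0-fold lower than in mESC-2i and at least 7.16-fold lower than in EpiLC.

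**Figure D5:**
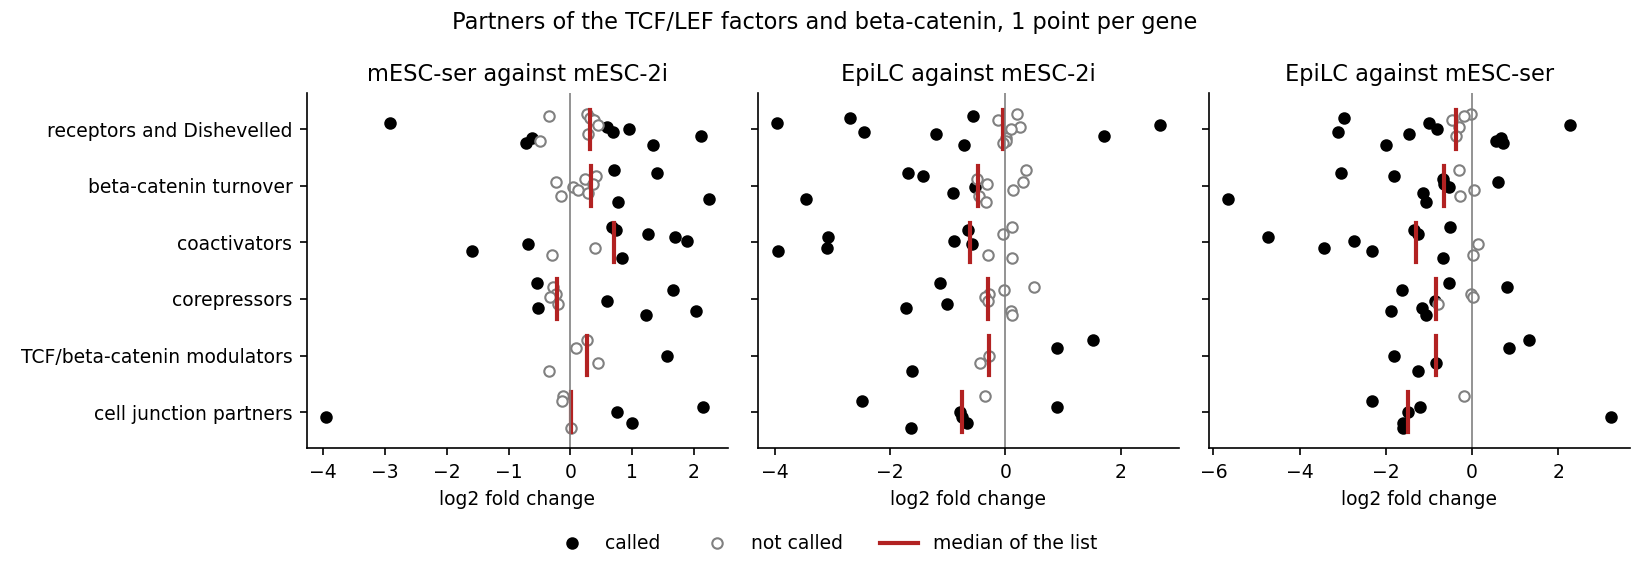
Log2 fold change (horizontal axis) of the 59 partner genes in 6 lists (vertical axis), 1 panel per comparison. Filled points passed the call, open points did not, and red bars are the medians of the lists. In EpiLC against mESC-ser most filled points lie to the left of 0 (36 of 45), and in mESC-ser against mESC-2i most lie to the right (23 of 31).

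The pattern of each member over the 9 libraries was compared with 13101 protein-coding genes, and the nearest 3 were named by the root mean square (RMS) difference of centred log2 CPM. Nearest to Lef1 were Pak6 (RMS 0.130), Cd276 (0.181) and Brinp1 (0.187), with mean levels for Cd276 of 18.3, 57.3 and 86.1 CPM in mESC-2i, mESC-ser and EpiLC. Nearest to Tcf7 were Wbp2 (0.0510), Cxxc5 (0.0720) and Aldh18a1 (0.0723). Nearest to Tcf7l1 were Sgsm2 (0.0578), Med24 (0.0604) and Mettl14 (0.0643), and nearest to Tcf7l2 were Atp9b (0.0823), Tsc1 (0.0827) and Ell (0.0946). Nearest to Ctnnb1 were Rab14 (0.0441), Tm9sf2 (0.0496) and Snx17 (0.0675). The distances of Lef1 were larger than those of the other members, a measure that grows with the range of a gene. Correlations with the nearest 3 were 0.985 to 0.994 for Lef1 and 0.943 to 0.964 for Tcf7l1. Brinp1 was at 0.174 CPM in mESC-2i. No member was among the nearest 3 of another.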

How the data were processed

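RNA-seq of 9 libraries of the E14 line was analysed, 3 in each of 3 states. Poly-A RNA was read as 50-base single-end reads with a kit that does not mark strand. The authors trimmed reads with Trim Galore (0.6.6), aligned them to mm10 with HISAT2 (2.2.1) and counted them per gene with Subread (2.0.1), as their processing notes and methods say. The deposited values are raw counts, not normalized. Count columns named SL were matched to the serum LIF samples by the initials and the replicate number. Annotation release, strand option and handling of multi-mapping reads are not given in the sources used here. The table held 38293 genes, 13184 of them with no count, and 36429 matched GENCODE M21 (GRCm38), which gave symbols and lengths.

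Each pair of states was fitted on its 6 libraries with edgeR 4.0.16 in R 4.3.3 (limma 3.58.1), with filterByExpr, TMM and the quasi-likelihood F-test, and Benjamini-Hochberg adjustment over all genes tested. SE is the standard error of the log2 fold change. A gene was called past 0.5 on the absolute log2 scale with an adjusted p under 0.05. The steps were tested on simulated data in which few genes changed, with equal numbers up and down. Those data held no composition, length or GC effect, unlike these libraries, so that test does not cover such effects. Offsets for length and GC used natural splines with 5 degrees of freedom, and log2 CPM a prior count of 2. A group at 3 counts or fewer in every library was treated as at the floor, and floors cover counting error only.

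The members and the gene lists were chosen with earlier results of these data known. In each list the called genes of largest rise and fall were named, with others for their role or as paralogues. Whether replicate numbers pair libraries was checked by correlating deviations from group means over 16187 genes. Between mESC-ser and mESC-2i same-numbered libraries correlated at 0.129 to 0.345 and the others at -0.278 to 0.146. No label states what same-numbered libraries share. The fits reported have no block, and the pairing entered as an alternative. With EpiLC not every pair was over 0.1. Replicates of a group differed by more than sampling noise (chi-square per degree of freedom 1.61 to 28.3). Other scalings, filters, DESeq2 1.42.0, a joint fit, a replicate block, other thresholds, other gene lengths and left-out libraries were tried. Sequences came from GENCODE M21 and RefSeq, and proteins were not used.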

Additional observations from a re-analysis of the deposited data

How the results depend on the processing

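Over 16 alternatives the log2 fold change of Lef1 ran from 1.44 to 1.83 in mESC-ser and from 2.00 to 2.87 in EpiLC against mESC-2i, and that of Ctnnb1 in EpiLC from -1.32 to -0.65 against mESC-2i and from -1.11 to -0.52 against mESC-ser. These refits use the libraries on which the genes were chosen and are a description. Without 1 replicate at a time, Tcf7l2 in EpiLC against mESC-2i ran from -1.15 to -0.81. At an absolute log2 fold change over 1, 4935 genes were called between mESC-ser and mESC-2i in place of 8843, and 15, 19 and 29 of the 59 partners in the 3 comparisons in place of 31, 31 and 45. With the replicate number as a block 30, 30 and 45 partners were called, and with length and GC offsets and the block 30, 28 and 33, and the block alone changed no call of a member. Tcf7l2 in EpiLC against mESC-2i, at -0.50 and called with the offsets, came to -0.49 with offsets and block and was not called. In the comparisons with EpiLC the numbers were not taken to pair libraries. Leaving out 1 replicate gave 29 to 35, 29 to 32 and 43 to 46. Tcf7l2 rested on 39 to 54 counts per library in EpiLC, which limits the precision of its differences.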
